A study of Mus musculus with 4 samples.

Results

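Fos, Fosb, Jun, Junb, Jund, Egr1, Egr2, Egr3, Atf3 and Maff are transcription factor genes of the immediate early class, taken here as a named list of 10 among the 31053 genes of the count matrices. Their messenger RNA was followed through cells sorted from the brain and spleen of aged and young mice. One single-cell library was prepared from each of 4 sources, the brain of aged and of young mice and the spleen of aged and of young mice, with droplets that tag every captured molecule with a cell barcode and a unique molecular identifier (UMI). The labels describe a sort for cells bright for CD45, a surface protein of white blood cells, and give the mice of all 4 libraries the same tamoxifen-induced tdTomato protocol. They also give all 4 libraries the cell type neuroblast. Exact ages, the sex and number of animals behind a library, and whether animals were pooled are not stated in the sources used, so a difference between groups is a difference between 2 libraries and has no replicate check and no test.

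AP-1 is a family of dimeric transcription factors built from bZIP proteins, in which a Fos protein must pair with a Jun protein, whereas Jun proteins can also pair with each other. The Egr proteins are zinc finger factors that bind GC-rich promoter sites. Genes of this class are known to be transcribed within minutes of a stimulus without new protein synthesis. In lymphocytes the stimulus can be antigen, a cytokine or stress, and in microglia as in many other cells it can be the digestion and sorting of the tissue itself.

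Cells were called from 57011537 aged brain UMIs, 26384220 young brain UMIs, 40628623 aged spleen UMIs and 39866955 young spleen UMIs. The young brain library shared barcodes with the aged spleen library, and 5097 of its 8767 filtered barcodes (58.1%) held more UMIs in the aged spleen matrix. How this arose was not tested. Those barcodes were left out of the young brain. Between the other pairs of libraries the share was at most 0.353%. After removal of doublets 11007 cells of the aged brain remained, with a median of 2134 UMIs per cell, and 3562 cells of the young brain, with a median of 2326. The aged spleen kept 5337 cells (median 4622 UMIs) and the young spleen 6370 cells (median 4119 UMIs).

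Clusters were named from marker genes, and the members and related stress genes were kept out of the clustering. NK-like cells, which carry Ncr1 and granzyme A, included 18 aged brain cells, 5 young brain cells, 721 aged spleen cells and 1774 young spleen cells. T-like cells came to 87, 16, 1816 and 1754 in the same libraries. The spleens held 1933 aged and 2424 young B-like cells, and the aged brain 2. Plasma-like cells came to 77 for the aged spleen, 13 for the young spleen and 6 for the aged brain. Microglia-like cells, which resemble the resident macrophages of brain tissue, came to 6651 for the aged brain and 2683 for the young brain. Border macrophage-like cells, which carry Mrc1 and Pf4 and resemble the macrophages of the brain's coverings and vessels, came to 892 for the aged brain and 225 for the young brain, and endothelial-like cells to 436 and 20. The UMIs of each class were summed per library and expressed as counts per 1000000 UMIs of that class (CPM). A UMI stands for a molecule and the tags lie at the 3′ end, so CPM carries no length factor. Intervals are exact 95% intervals and cover counting error only.

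The neuroblast label was not borne out by the clusters, none of which was given a neuron or neuroblast name. In the classes described the 7 neuron or neuroblast markers together stayed between 0 and 76.4 CPM in every library. Since classes were named from marker genes, low levels there follow in part from the naming and cannot test the label. The sort for CD45 was not borne out for all cells either, since 436 endothelial-like, 217 choroid or ependymal-scored and 61 astrocyte-scored cells were found in the aged brain. Free RNA was present in all 4 libraries. Cd79a, a B cell gene, had a UMI in 5.13% of aged spleen NK-like cells and 7.27% of young spleen NK-like cells, at median depths of 4519 and 4016 UMIs. Ttr, a choroid plexus gene, had a UMI in 99.9% of aged brain and 79.1% of young brain microglia-like cells. In the brain libraries the 11 microglia markers summed to 4527 CPM in aged brain T-like cells, which was 16.8% of their level in microglia-like cells of that library.

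The promoter stretches of 5 members are shown for elements that the windows hold, each for the 150 bases before a RefSeq start on GRCm38.p6, 5′ to 3′ on the gene's strand. Capitals mark matches, on either strand, to the cyclic AMP response element TGACGTCA or its half-site TGACG, the AP-1 site TGANTCA, its variant TGACATCA known from the Jun promoter, the CArG box bound by serum response factor, the Egr site GCGTGGGCG and the TATA box TATAAA. The RefSeq table lists 5 starts for Egr2 and 3 for Maff, and the 1 printed for each was picked after the matches were seen. The windows are Fos at chr12:85473740-85473889 (plus strand), Jun at chr4:95052223-95052372 (minus strand), Junb at chr8:84978749-84978898 (minus strand), Egr2 at chr10:67537719-67537868 (plus strand) and Maff at chr15:79347370-79347519 (plus strand).
Fos: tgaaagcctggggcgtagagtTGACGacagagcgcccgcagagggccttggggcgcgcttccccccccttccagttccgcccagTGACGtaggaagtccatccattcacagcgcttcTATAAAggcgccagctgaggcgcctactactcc
Jun: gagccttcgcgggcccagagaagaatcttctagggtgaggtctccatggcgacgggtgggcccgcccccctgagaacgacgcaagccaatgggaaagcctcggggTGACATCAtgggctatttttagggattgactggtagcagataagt
Junb: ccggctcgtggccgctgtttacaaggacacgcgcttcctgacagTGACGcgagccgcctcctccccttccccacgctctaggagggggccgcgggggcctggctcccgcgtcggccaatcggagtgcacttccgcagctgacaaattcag
Egr2: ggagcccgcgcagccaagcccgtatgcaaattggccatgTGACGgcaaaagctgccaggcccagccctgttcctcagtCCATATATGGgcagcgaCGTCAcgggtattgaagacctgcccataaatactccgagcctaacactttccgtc
Maff: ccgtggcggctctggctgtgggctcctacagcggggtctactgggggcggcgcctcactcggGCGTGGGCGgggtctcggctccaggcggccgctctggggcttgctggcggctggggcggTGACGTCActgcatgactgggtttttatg
The Fos window held the half-site at positions -129 and -66 and the TATA box at -33, counted back from the gene start. The Jun window held TGACATCA at -45, and the Junb window held 1 half-site at -106. The Egr2 window held the CArG box at -72 between half-sites at -111 and -55, and the Maff window held the whole element TGACGTCA at -29, which contains its half-site on both strands, and the Egr site at -88. The other starts of these genes differed. For Egr2, chr10:67535349-67535498, the stretch that spans the GENCODE gene start, held no match, chr10:67537416-67537565 held another CArG box at -72, and the remaining windows overlap the one printed. For Maff, chr15:79346471-79346620, the stretch just before the GENCODE gene start, held no match, and chr15:79348252-79348401 held TGACATCA at -45 and a half-site at -122. Which start was used in these cells was not measured. Among 32851 windows of the same length over all genes in the RefSeq table, 1.36% held TGACGTCA, 13.3% its half-site, 4.24% TGANTCA, 2.32% TGACATCA, 0.916% the CArG box, 0.426% the Egr site and 7.57% TATAAA. A match is a description of the letters only. TGANTCA had no match in any of the windows read. Atf3 and Fosb also have entries in the table, with 1 half-site each, and Jund has one with no match, while Egr3 has none. The Jund window, chr8:70697589-70697738, does not reach the gene start at chr8:70698949. The Atf3 window, chr1:191183334-191183483, lies inside the gene, which starts at chr1:191218039 on the minus strand. Neither window thus covers the stretch just before that gene start.

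Each member had its own distribution over the 13 class and library groups with at least 50 cells. Fos, the founding partner of AP-1 whose protein cannot pair with itself, ran between 1755 CPM in plasma-like cells of the aged spleen and 73.3 CPM in T-like cells of the aged brain, a 23.9-fold range. Below the plasma-like cells came B-like cells of the young spleen with 1048 CPM and NK-like cells of the young spleen with 940.5 CPM, each clear of the next by its interval. Microglia-like cells of the young brain, B-like cells of the aged spleen, T-like cells of the young spleen, border macrophage-like cells of the young brain and NK-like cells of the aged spleen followed between 644 and 546.5 CPM, and neighbours among them overlapped. Fosb, the second Fos protein, ran between 705.7 and 61.8 CPM with the same groups at its ends. The plasma-like levels of all members pool 77 cells, and the intervals leave out spread between those cells. With cells thinned to equal depth, 25.3% of the plasma-like cells had no UMI of any member. In the splenic NK-like, T-like and B-like groups that share was at most 5.58%. The mean number of members per thinned cell was 2.21 in plasma-like cells, against 2.37 to 3.31 in those groups. A high pooled plasma-like level thus need not hold for each cell.

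The Jun genes, which supply the partners, peaked in different classes. Jun was highest in microglia-like cells of the young brain, with 4125 CPM, then border macrophage-like cells of the young brain, with 2879 CPM, and microglia-like cells of the aged brain, with 2176 CPM. Its lowest groups were T-like cells, with 547.1 CPM in the young spleen and 509.4 CPM in the aged brain, which overlapped. Junb, a Jun protein known as a weaker activator than Jun, was highest in aged spleen NK-like cells, with 4340 CPM, and aged spleen T-like cells, with 3354 CPM, and lowest in T-like cells of the aged brain, with 312.6 CPM. Jund, the most constant of the Jun genes in many tissues, had the narrowest range here, 1343 to 366.6 CPM or 3.66-fold, with NK-like and plasma-like cells of the aged spleen overlapping at the top.

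Egr1, a zinc finger factor induced by growth factor and antigen receptor signals, was highest in plasma-like cells of the aged spleen (766.3 CPM), microglia-like cells of the young brain (761.2 CPM) and B-like cells of the young spleen (724.8 CPM), each overlapping the next. It was lowest in the splenic NK-like and T-like groups and the aged brain T-like group, between 159.2 and 112.6 CPM. Egr2 and Egr3, which are known to restrain antigen receptor responses in T cells and to act in B cell growth, were both highest in B-like cells. Egr2 had 84.1 CPM in B-like cells of the aged spleen and 41.4 CPM in B-like cells of the young spleen, and Egr3 had 337.2 and 238.3 CPM in them. Among the 13 groups, the highest Egr3 level outside B-like and plasma-like cells was 28.1 CPM, in T-like cells of the young spleen. Monocyte or macrophage-scored cells of the aged spleen, which are not among the 13, had 162.9 CPM. Free RNA, measured in droplets of at most 100 UMIs, carried Egr3 at 140.4 CPM in the aged spleen and 138.4 CPM in the young spleen, above its level in T-like and NK-like cells of either spleen.

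Atf3, a stress-induced bZIP factor that often acts as a repressor, was highest in aged spleen NK-like cells, with 195 CPM, and had no UMI among the 87 aged brain T-like cells. Maff, a small Maf protein that binds DNA but has no activation domain of its own, was highest in NK-like (139.5 CPM) and T-like cells (122.2 CPM) of the aged spleen, which overlapped. In both brain macrophage classes Maff stayed between 0 and 2.18 CPM. In the brain the low groups of Atf3, Egr2, Egr3 and Maff rest on few UMIs, and 9, 8, 7 and 11 of the 12 pairs of neighbours in their orders overlapped.

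**Figure D1:**
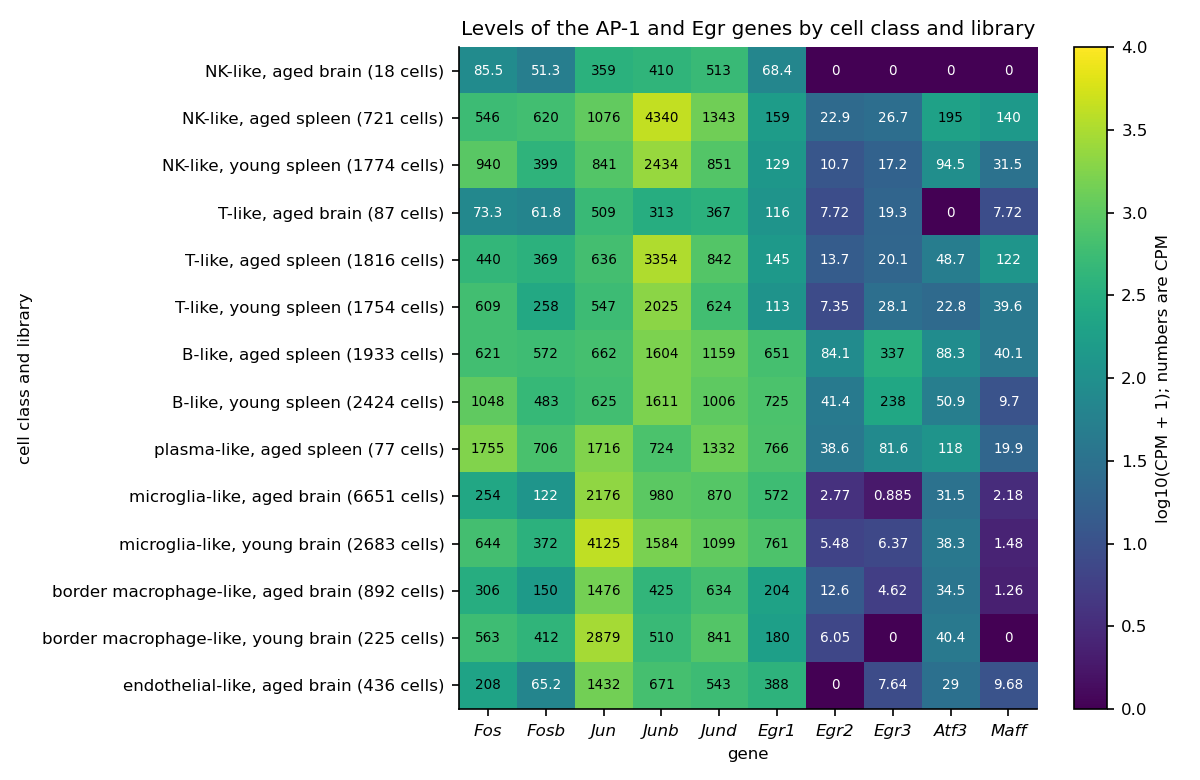
Levels of the 10 genes (columns) in the class and library groups with at least 50 cells and in the 18 NK-like cells of the aged brain (rows), with the CPM printed in each square and the colour on the scale log10(CPM + 1), brighter for higher. Jun is brightest in microglia-like and border macrophage-like cells of the young brain, Junb in splenic NK-like and T-like cells, Egr3 in B-like cells, and Maff in NK-like and T-like cells of the aged spleen.

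The first comparison asked how these genes stood in NK cells of the aged against the young spleen. Of the 10 members 9 had higher CPM in the aged spleen, at 1.23-fold or more and with intervals clear of 1, and Fos was lower. Maff had 139.5 CPM in the aged spleen and 31.5 CPM in the young spleen, a 4.43-fold ratio (interval 3.79 to 5.2). Atf3 had 195 CPM in the aged and 94.5 CPM in the young spleen (2.06-fold, 1.85 to 2.29), and Egr2 had 22.9 CPM in the aged and 10.7 CPM in the young spleen (2.15-fold, 1.56 to 2.97). These 3 of 10 members were higher by 2-fold or more, against 2.39% of the 9046 genes whose UMIs came to 50 or more in the pair of libraries. None was lower by 2-fold, against 2.44% of genes.

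Within AP-1 the partners differed in opposite directions. Junb had 4340 CPM in the aged and 2434 CPM in the young spleen (1.78-fold, 1.75 to 1.82), and Jund 1343 and 851 CPM (1.58-fold, 1.52 to 1.64). Fosb had 619.8 CPM in the aged and 399.2 CPM in the young spleen (1.55-fold, 1.47 to 1.64). Fos ran the other way, with 546.5 CPM in the aged and 940.5 CPM in the young spleen (0.581-fold, 0.552 to 0.612), so that Fosb stood above Fos in the aged spleen and Fos above Fosb in the young spleen. Jun (1.28-fold), Egr1 (1.23-fold) and Egr3 (1.55-fold) were higher by smaller factors. The median member was at 0.65 on the log2 scale, while the median of all counted genes was at -0.13.

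The same contrast held per cell when every cell was thinned to 1000 UMIs. Maff then had a UMI in 11.7% of aged and 2.91% of young spleen NK-like cells (unthinned 40.2% and 11.9%), and Fos in 32.8% of aged and 50.2% of young spleen NK-like cells (unthinned 70.3% and 81.3%). The yardstick of free RNA, Cd79a, was at 5.13% of aged and 7.27% of young spleen NK-like cells unthinned. Egr2 had a UMI in 9.43% of aged and 3.78% of young cells, and Egr3 in 9.71% and 5.64%. Both lay above the Cd79a share in the aged spleen and below it in the young spleen. A share from free RNA depends on each gene's own free level, so the Cd79a share sets no limit for another gene. By level Egr2 and Egr3 were under their free RNA in both spleens, Egr2 with free RNA levels of 37.7 and 20.35 CPM. A level under that of free RNA does not give the part of it that is free RNA. The 8 B cell markers summed to 80.2 CPM in aged spleen NK-like cells, beside 5954 CPM in aged spleen B-like cells. Maff lay above its free RNA in the aged spleen, 71.9 CPM, but under it in the young spleen, 39.2 CPM. How much of the Egr2, Egr3 and Maff levels of NK-like cells is free RNA was not tested. A thinned cell held a mean of 3.31 members in the aged spleen, against 2.87 in the young spleen.

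In T-like cells of the spleen Maff and Atf3 had the highest ratios. Maff had 122.2 CPM in the aged and 39.6 CPM in the young spleen (3.08-fold, 2.75 to 3.47), and Atf3 48.7 and 22.8 CPM (2.13-fold, 1.82 to 2.51). These 2 of 10 members were higher by 2-fold or more, against 3.21% of 9980 genes, and none was lower by 2-fold, against 1.77%. Junb had 3354 CPM in the aged and 2025 CPM in the young spleen (1.66-fold, 1.63 to 1.69), and Fos had 439.9 CPM in the aged and 609.3 CPM in the young spleen (0.722-fold, 0.695 to 0.750). Egr3, alone with Fos, was lower in the aged spleen, with 20.1 CPM there and 28.1 CPM in the young spleen (0.714-fold, 0.594 to 0.857), both under its free RNA level. Egr2 was at 1.86-fold (1.39 to 2.51), Fosb at 1.43-fold, Jund at 1.35-fold, Egr1 at 1.29-fold and Jun at 1.16-fold. Atf3 had a UMI in 15.3% of aged and 6.78% of young spleen T-like cells, while Cd79a had one in 6.55% and 8.72%. The Cd79a share cannot tell what part of the Atf3 share is background. By level Atf3 in T-like cells lay under its free RNA in both spleens, which was 155 CPM in the aged and 70.3 CPM in the young spleen. Egr2, too, was under its free RNA in both. Maff was above its free RNA of 71.9 CPM in the aged spleen. In the young spleen its 39.6 CPM was near the 39.2 CPM of free RNA. How much of these levels is free RNA was not tested. The median member was at 0.47 and the median gene at -0.09 on the log2 scale.

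The T-like class held 4 clusters whose sizes differed between the spleens, so the members were also compared inside each. A cluster led by Ly6c2, Cd7 and Trdc held 548 aged and 475 young spleen cells, one led by Dapl1 and Cd8b1 held 562 and 583, one led by Cxcr6 and Art2b held 174 and 576, and one led by Ctla4, Izumo1r and Foxp3 held 532 and 120. Junb was higher in the aged spleen in all 4 clusters, by 1.76-fold to 1.97-fold, Maff by 3.06-fold to 4.39-fold, Fosb by 1.28-fold to 1.60-fold and Jund by 1.31-fold to 1.60-fold. Fos was lower in all 4, at 0.605-fold to 0.948-fold, with an interval that reached 1.04 in the Cxcr6 cluster. Atf3 was higher in all 4, by 1.84-fold to 1.98-fold. Egr3 was at 0.445-fold to 0.907-fold, with an interval clear of 1 only in the Foxp3 cluster (0.292 to 0.691). Egr2 was at 2.39-fold in the Dapl1 cluster but at 1.12-fold, 1.004-fold and 1.04-fold in the other 3, each with an interval that included 1, so its pooled ratio was not seen within them. Its level was 22.8 CPM in aged and 21.9 CPM in young cells of the Foxp3 cluster, which held more of the aged cells. The highest Junb and Maff levels of the aged spleen were in the Cxcr6 cluster, with 5241 and 235.4 CPM, against 2854 and 53.6 CPM in the same cluster of the young spleen.

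B-like cells differed from both in Junb. Junb had 1604 CPM in the aged and 1611 CPM in the young spleen, with a ratio of 0.996 and an interval of 0.973 to 1.02, whose sign turned when libraries were scaled on the median gene (1.09). Maff had 40.1 CPM in the aged and 9.70 CPM in the young spleen (4.13-fold, 3.30 to 5.23), and Egr2 84.1 and 41.4 CPM (2.03-fold, 1.80 to 2.30). These 2 of 10 members were higher by 2-fold or more, against 1.72% of 9617 genes, and none was lower by 2-fold, against 1.67%. Maff had a UMI in 15.3% of aged and 3.88% of young spleen B-like cells. Nkg7, an NK and T cell gene used as a free RNA yardstick, had one in 3.83% and 8.58% of them. The Nkg7 share cannot tell what part of the Maff share is background. By level Maff in B-like cells lay under its free RNA in both spleens, which was 71.9 CPM in the aged and 39.2 CPM in the young spleen.

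Among the Egr genes of B-like cells, Egr3 had 337.2 CPM in the aged and 238.3 CPM in the young spleen (1.41-fold, 1.34 to 1.49), and Egr1 had 650.8 and 724.8 CPM (0.898-fold, 0.867 to 0.93). Fos had 621.4 CPM in the aged and 1048 CPM in the young spleen (0.593-fold, 0.574 to 0.613). Fos was thus lower in the aged spleen in all 3 lymphocyte classes, and its free RNA was lower too, with 551.8 CPM in the aged and 917 CPM in the young spleen. Fos lay above that level in both B-like groups, under it in both T-like groups and in aged spleen NK-like cells, and just above it in young spleen NK-like cells. Junb, by contrast, had 1984 CPM in the free RNA of the aged and 1948 CPM in that of the young spleen, under its level in NK-like and T-like cells of both. The part of free RNA in the ratios was not tested. Jun (1.06-fold), Jund (1.15-fold) and Fosb (1.18-fold) lay close to equality in B-like cells, and Atf3 was at 1.74-fold. In the 77 aged and 13 young spleen plasma-like cells Fos had 1755 and 2769 CPM and Jun 1716 and 3815 CPM, and the young group is too small for a count past the fold.

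**Figure D2:**
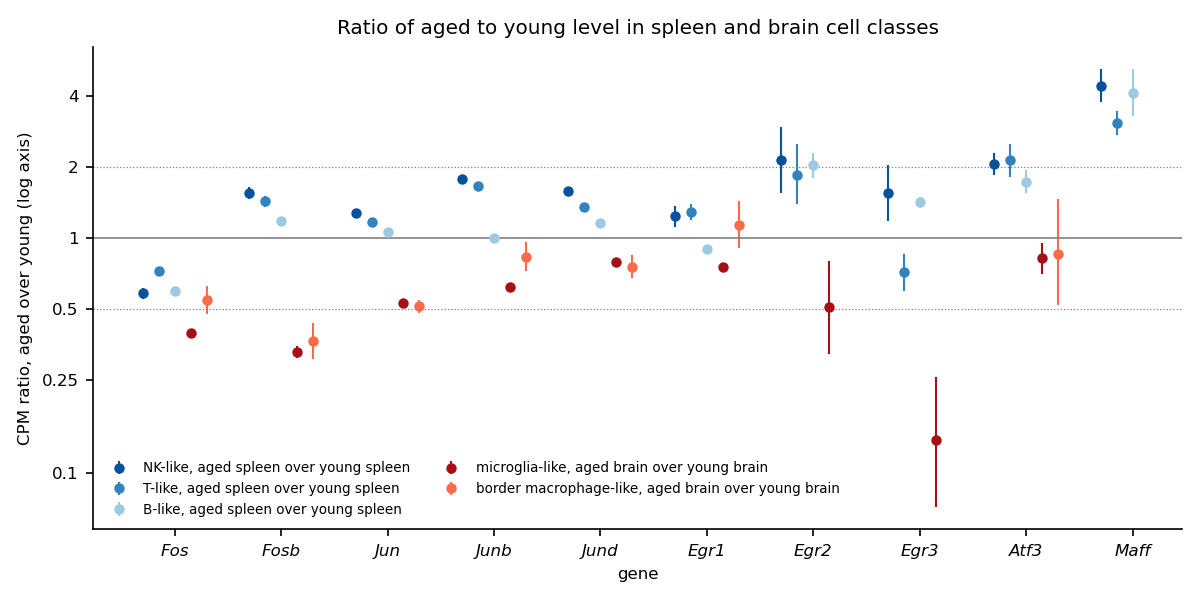
CPM ratio of the aged over the young library for each gene (log axis, line at 1 and at 2-fold either way) in NK-like, T-like and B-like cells of the spleen and microglia-like and border macrophage-like cells of the brain, with exact 95% intervals for counting error. Maff lies above 3 in the 3 splenic classes, while Fos lies below 1 in all 5 classes and lowest in microglia-like cells at 0.394.

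Other genes of the immediate early class, a list of 30 that holds none of the members, were counted the same way. In NK-like cells 11 of 26 counted genes were higher by 2-fold or more in the aged spleen and none was lower. The steroid receptor family gene Nr4a3 had 303.3 CPM in the aged and 60.9 CPM in the young spleen (4.98-fold), the growth arrest gene Gadd45b was at 3.45-fold, the kinase gene Sik1 at 3.35-fold and the NF-kB inhibitor gene Tnfaip3 at 2.79-fold. In T-like cells 7 of 27 were higher, among them the cytokine signalling inhibitor Socs3 at 3.08-fold and Nr4a3 at 3.05-fold, and in B-like cells 6 of 25 were higher, with Nr4a3 at 5.56-fold. The list's median log2 ratio was 0.80 in NK-like, 0.66 in T-like and 0.37 in B-like cells.

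Of the relatives that pair with AP-1 or resemble it, 2 of 13, 1 of 14 and 1 of 11 counted genes were higher by 2-fold or more in NK-like, T-like and B-like cells, in that order. Fosl2, the Fos-related partner of Jun, was among them in each class. It had 427.4 CPM in the aged and 157.6 CPM in the young spleen in NK-like cells (2.71-fold), 269 and 92.2 CPM in T-like cells (2.92-fold) and 35.9 and 5.94 CPM in B-like cells (6.05-fold). Of 19 upstream kinases and promoter-binding factors only Crem, which binds cyclic AMP response elements, was higher by 2-fold in each class, at 3.02-fold, 3.25-fold and 3.29-fold, while Creb1 was at 0.673-fold, 0.643-fold and 0.675-fold. Of the co-repressors and targets of Egr proteins, the cell cycle inhibitor gene Cdkn1a alone passed 2-fold, at 2.51-fold, 4.22-fold and 2.49-fold. None of 10 broadly used genes passed 2-fold in any of the 3 classes.

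Measures of cell quality also differed between the spleens. Median UMIs per cell were 4519 in aged and 4016 in young NK-like cells, 5733.5 and 5071.5 in T-like cells and 4172 and 3793 in B-like cells. The median mitochondrial share was 3.56% in aged and 2.93% in young NK-like cells, 5.23% and 4.40% in T-like cells and 6.29% and 5.51% in B-like cells. Heat shock genes, another stress-responsive group, had 2 of 11 members higher by 2-fold in aged NK-like cells, Hspa1a at 2.75-fold and Hspa1b at 2.35-fold, and none in T-like or B-like cells. The part of these measures in the member differences was not tested.

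In the brain most members had lower levels in the aged library, and among them Fos was lower as it was in the spleen. Microglia-like cells of the aged brain had lower levels of 9 of the members than those of the young brain. Fos had 253.8 CPM in the aged and 644 CPM in the young brain (0.394-fold, 0.378 to 0.411), and Fosb 122.2 and 371.7 CPM (0.329-fold, 0.310 to 0.349). Egr3 had 15 UMIs in the aged brain, against 43 in the young brain, 0.885 and 6.37 CPM (0.139-fold), below its free RNA level of 22.8 CPM in the aged and 67.7 CPM in the young brain. These 3 of the 9 members with at least 50 UMIs were lower by 2-fold or more, against 1.57% of 11035 genes, and none was higher by 2-fold, against 5.68%.

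Jun, the most abundant member in microglia-like cells, had 2176 CPM in the aged and 4125 CPM in the young brain (0.528-fold, 0.519 to 0.536), short of the 2-fold line. Junb had 980.5 CPM in the aged and 1584 CPM in the young brain (0.619-fold), Jund 869.7 and 1099 CPM (0.791-fold) and Egr1 571.8 and 761.2 CPM (0.751-fold). Atf3 was closest to equality among the members counted, with 31.5 CPM in the aged and 38.3 CPM in the young brain (0.821-fold, 0.706 to 0.956). Egr2 had 47 UMIs in the aged brain, against 37 in the young brain (0.507-fold, 0.322 to 0.801). Maff had 37 UMIs in the aged brain, against 10 in the young brain, and was not counted. The median member was at -0.92 and the median gene at 0.08 on the log2 scale.

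Per cell thinned to 1000 UMIs, Fos had a UMI in 18.8% of aged and 37.4% of young brain microglia-like cells (unthinned 32.2% and 56.3%). Fosb had one in 9.98% of aged and 26.8% of young cells (unthinned 20.5% and 45.8%), and Jun in 77.8% and 92.4% (unthinned 89.7% and 97.3%). Cd79a, which microglia lack, had a UMI in 3 of 6651 aged and 8 of 2683 young cells (0.0451% and 0.298%), at median depths of 2318 and 2467 UMIs. The free RNA of the brain libraries held Fos at 276.8 CPM in the aged and 456 CPM in the young brain, Fosb at 121.3 and 287.3 CPM, and Jun at 1088 and 1301 CPM. Fos and Fosb of aged microglia-like cells were thus near their free RNA level, while both Jun levels were above it. Junb of aged microglia-like cells, with 980.5 CPM, lay under its free RNA level of 1197 CPM in the aged brain. Egr2 and Atf3 lay under theirs in both libraries. A thinned cell held a mean of 2.47 members in the aged brain, against 3.29 in the young brain.

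Most microglia-like cells of the libraries fell into different clusters, the aged ones into a cluster of 3974 aged and 83 young cells and one of 2360 aged and 35 young cells, the young ones into a cluster of 215 aged and 2480 young cells. An interferon-induced cluster, led by Cxcl10 and Ifit3, held 102 and 85. Inside the 3 clusters with at least 50 cells of each library, Fos was at 0.300-fold to 0.415-fold, Fosb at 0.208-fold to 0.501-fold, Jun at 0.497-fold to 0.549-fold and Junb at 0.474-fold to 0.767-fold. In the interferon-induced cluster, for example, Fos had 233.7 CPM in the aged and 778.1 CPM in the young brain. Each of these genes was lower in the aged brain in all 3 clusters, and Atf3 was lower in 1 of them. Egr2 had at most 3 UMIs in at least 1 library of each cluster, and its pooled ratio could not be checked there.

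**Figure D3:**
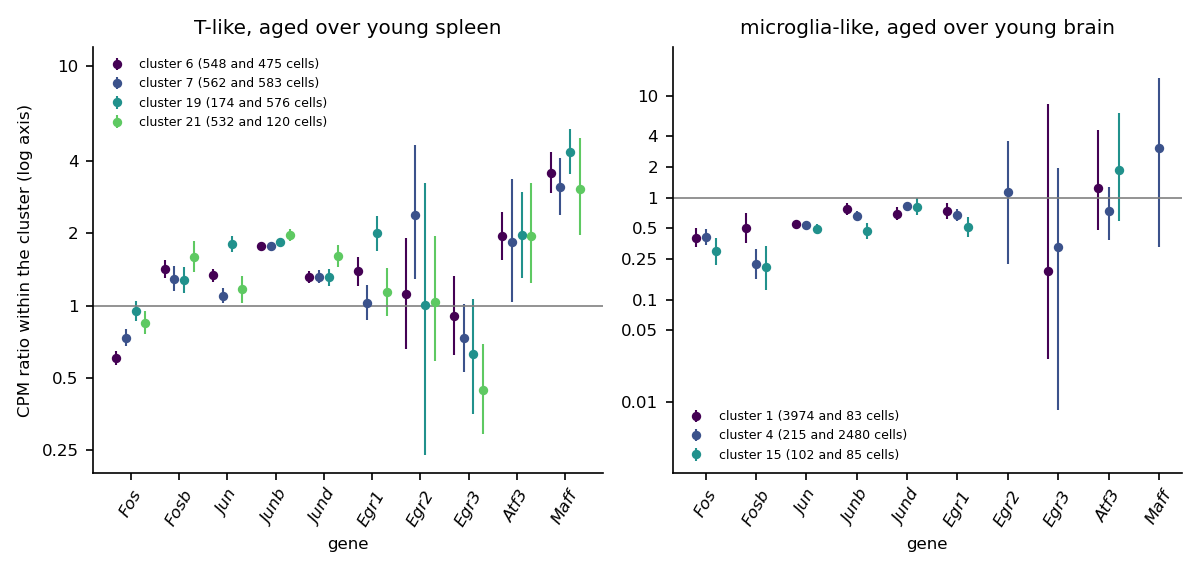
CPM ratio of the aged over the young library within single clusters (log axis, exact 95% intervals for counting error, line at 1), for the 4 T-like clusters of the spleen on the left and the 3 microglia-like clusters of the brain on the right. Junb and Maff lie above 1 in every T-like cluster, and Fos, Fosb, Jun and Junb lie below 1 in every microglia-like cluster.

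The other immediate early genes had the same direction in microglia-like cells, with 8 of 22 counted genes lower by 2-fold or more and none higher. The Krüppel-like factor genes Klf2, with 59.3 CPM in the aged and 194.7 CPM in the young brain (0.304-fold), and Klf4 (0.330-fold) were among them, with the phosphatase gene Dusp2 at 0.244-fold and Gadd45b at 0.323-fold. None of 16 AP-1 relatives and none of 19 upstream kinases and factors passed 2-fold either way. Of 10 broadly used genes 1, B2m, which encodes the light chain of MHC class I, was higher by 2-fold, with 2013 CPM in the aged and 817.6 CPM in the young brain. The median log2 ratio of those 10 was 0.40, with Eef1a1 at 1.41-fold, Gapdh at 1.42-fold and Tpt1 at 1.39-fold. Of 11 heat shock genes 1, Hspa1a, was lower by 2-fold, with 10.7 CPM in the aged and 57.9 CPM in the young brain. Median UMIs were 2318 in aged and 2467 in young cells, and the median mitochondrial share 3.08% and 2.25%. A further cluster that scored as microglia but held little RNA, with 2109 aged and 449 young brain cells, was left unnamed, and adding it gave a Fos ratio of 0.396 and a Jun ratio of 0.528.

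The ratios were close to these with the shared barcodes kept. Then the ratio in microglia-like cells was 0.399 for Fos, 0.330 for Fosb and 0.532 for Jun. Without the 8 young brain cells that held at least 5% of their UMIs in the aged spleen it was 0.394 for Fos, 0.329 for Fosb and 0.528 for Jun.

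Border macrophage-like cells of the aged brain also had lower Fos, Fosb and Jun levels. Fosb had 150.4 CPM in the aged and 411.6 CPM in the young brain (0.366-fold, 0.307 to 0.436). Jun had 1476 CPM in the aged and 2879 CPM in the young brain (0.513-fold, 0.482 to 0.546), and Fos 306.3 and 562.9 CPM (0.544-fold, 0.473 to 0.627). Of 7 members counted only Fosb was lower by 2-fold or more, against 1.98% of 6670 genes, and none was higher, against 5.94%.

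Egr1 of border macrophage-like cells was not separated between the ages, with 204.2 CPM in the aged and 179.6 CPM in the young brain and a ratio of 1.14 whose interval, 0.905 to 1.44, included equality. Junb was at 0.832-fold (0.724 to 0.959), Jund at 0.754-fold and Atf3 at 0.854-fold (0.519 to 1.47). Junb of the aged border macrophage-like cells, with 424.8 CPM, was under its free RNA level of 1197 CPM in the aged brain. Egr2, Egr3 and Maff had 30, 11 and 3 UMIs in the aged and 3, 0 and 0 in the young brain and were not counted. Microglia markers summed to 8758 CPM in the aged and 5572 CPM in the young border macrophage-like cells, which was 32.4% and 17.7% of the microglia-like level in each library, and their part in the result was not tested. With the shared barcodes kept, Fosb was at 0.384-fold and Jun at 0.558-fold, and Egr1 at 1.51-fold.

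Of 16 other immediate early genes counted in border macrophage-like cells 3 were lower by 2-fold or more, among them Klf2 at 0.458-fold and Klf4 at 0.473-fold. Of 9 broadly used genes counted there B2m was higher by 2-fold (2.15-fold), and their median log2 ratio was 0.48. Endothelial-like cells, with 436 aged brain and 20 young brain cells, allow values only. Fosb had 65.2 CPM in the aged and 275.1 CPM in the young brain, on 128 and 18 UMIs, and Jun had 1432 and 1315 CPM. The microglia markers in them summed to 47.0% of the microglia-like level in the aged brain, against 13.3% in the young brain.

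The last pair of comparisons set lymphocytes of the aged brain beside those of the aged spleen. Among the 87 aged brain T-like cells Junb had 312.6 CPM, against 3354 CPM in the aged spleen (0.0932-fold, 0.0740 to 0.116). Fos had 73.3 CPM in the aged brain and 439.9 CPM in the aged spleen (0.167-fold, 0.10 to 0.261), and Fosb 61.8 and 369.3 CPM (0.167-fold). Maff had 2 UMIs in the aged brain, 7.72 CPM, and 122.2 CPM in the aged spleen (0.0632-fold, 0.00764 to 0.229). Atf3 had no UMI in the aged brain, which at a floor of 3 UMIs makes it at most 0.238 of its 48.7 CPM in the aged spleen.

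Jun, Egr1 and Egr3 differed less between the tissues, though the Jun interval lay clear of 1. Jun had 509.4 CPM in aged brain and 636.4 CPM in aged spleen T-like cells (0.801-fold, 0.669 to 0.951), Egr1 115.8 and 145.1 CPM (0.798-fold, 0.537 to 1.14) and Egr3 19.3 and 20.1 CPM (0.961-fold, 0.309 to 2.28). Egr3 rested on 5 UMIs in the aged brain, and Egr2 on 2 UMIs (0.565-fold, 0.0678 to 2.08). Jund was at 0.435-fold. In all 6 of 10 members were lower by 2-fold or more, against 12.4% of 9075 genes, and none was higher, against 15.2%. The backgrounds of this comparison are wider than those of the spleen.

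The composition of the T-like class differed between the tissues. In the aged brain 80 of the 87 cells lay in the cluster led by Ly6c2, Cd7 and Trdc, and within it Junb was at 0.0811-fold, Fos at 0.166-fold and Jun at 0.664-fold of the aged spleen level. Of the 87 cells, 37 had no Cd3 UMI, and 15 of these had a UMI of Ncr1, an NK cell receptor. In the 50 cells with a Cd3 UMI Junb had 331.2 CPM, against 3221 CPM in such cells of the aged spleen, and Fos had 77.9 and 421 CPM.

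NK-like cells of the aged brain, 18 in all, had 24 UMIs of Junb, which is 410.4 CPM, against 4340 CPM in the aged spleen (0.0946-fold, 0.0606 to 0.141). Fosb was at 0.0828-fold on 3 UMIs, with a counting interval of 0.0171 to 0.242. Fos was at 0.156-fold (0.0507 to 0.366), with 85.5 CPM in the aged brain and 546.5 CPM in the aged spleen. Jun, with 359.1 CPM in the aged brain and 1076 CPM in the aged spleen, was at 0.334-fold, and Jund at 0.382-fold. Atf3 and Maff had no UMI in the aged brain and were at most 0.263 and 0.368 of the aged spleen level, while Egr2 and Egr3 also had none, and the floor of 3 UMIs gives them no ratio under 1. In all 8 of 10 members were lower by 2-fold or more, against 12.9% of 6581 genes, and none was higher, against 12.1%. Egr1 is among the 8 on 4 UMIs, with an interval that reaches 1.11.

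**Figure D4:**
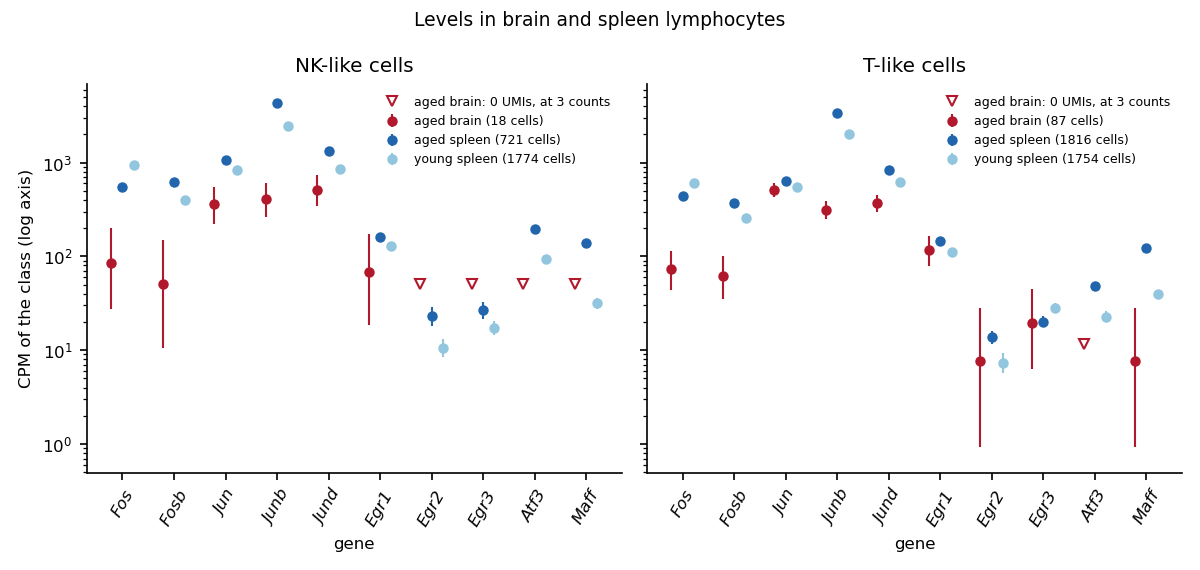
CPM (log axis) with exact 95% Poisson intervals for counting error of each gene in NK-like cells (left) and T-like cells (right) of the aged brain, aged spleen and young spleen, with an open triangle at 3 counts where the aged brain had no UMI. Junb, Fos and Fosb of the aged brain lie below both spleens in each class, while Jun and Egr1 of T-like cells lie closer to the spleens.

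The other immediate early genes were lower still in the aged brain. Of 27 counted in T-like cells 23 were lower by 2-fold or more and 1 was higher, and in NK-like cells 24 of 26 were lower. In T-like cells Tnfaip3 had 42.5 CPM in the aged brain and 1269 CPM in the aged spleen (0.0335-fold), and Klf2, which guides lymphocyte exit from tissues, had 38.6 and 833.7 CPM (0.0463-fold). The median log2 ratio of that list was -2.93 in both classes, beside 0.15 for all genes in T-like and 0.06 in NK-like cells. The median log2 ratio of the members was -1.20 in T-like cells over the 9 with UMIs in both libraries and -2.13 in NK-like cells over 6, and -1.64 and -1.51 with the rest at their bounds.

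Depth and stress genes differed between the tissues as well. Median UMIs per cell were 2547 in aged brain and 5733.5 in aged spleen T-like cells, and 2874.5 and 4519 in NK-like cells. Of 11 heat shock genes 4 were lower by 2-fold in T-like and 5 in NK-like cells of the aged brain, with none higher. Among broadly used genes Gapdh was higher in NK-like cells of the aged brain, at 2.10-fold. In the free RNA of the aged brain Junb had 1197 CPM, Fos 276.8 CPM and Jun 1088 CPM, above their levels in its T-like and NK-like cells. Egr3 of T-like cells was under its free RNA in both tissues. That was 22.8 CPM in the aged brain and 140.4 CPM in the aged spleen. The part of these measures in the result was not tested.

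RNA of other brain cells was present in these lymphocytes. Microglia markers summed to 4527 CPM in T-like and 2155 CPM in NK-like cells of the aged brain, and all 11 had a UMI in the NK-like cells. In T-like cells of the aged spleen they summed to 32.8 CPM. Cx3cr1 had a UMI in 78.2% of the aged brain T-like cells. Microglia-like cells of the same library carried Jun at 2176 CPM and Egr1 at 571.8 CPM. The part of that RNA in the T-like values was not tested. Tissue and the handling of each tissue cannot be told apart.

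A looser limit of 1.5-fold gave the following counts over the same genes. In NK-like cells of the spleen 7 of 10 members were higher in the aged library, against 6.51% of genes, and Fos alone was lower, against 11.3%. In splenic T-like cells 4 members, Maff, Atf3, Egr2 (past 1.5-fold in 1 of 4 clusters) and Junb, were higher, against 8.13% of genes, and none was lower, against 8.15%. In B-like cells 3, Maff, Egr2 and Atf3, were higher, against 5.31%, and Fos was the 1 lower, against 9.33%. In microglia-like cells 6 of 9 were lower in the aged brain, against 4.76% of genes, and none was higher, against 12.7%. In border macrophage-like cells 3 of 7, Fosb, Jun and Fos, were lower, against 9.28%, and none was higher, against 16.2%. In the aged brain set beside the aged spleen, 8 members were lower in NK-like cells, against 21.4% of genes, and 7 in T-like cells, against 21.5%, with none higher in either, against 23.1% and 28.1%.

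The young brain held only 16 T-like and 5 NK-like cells after the shared barcodes were left out, and no ratio is drawn from them. The T-like cells had 286.8 CPM of Junb on 11 UMIs, beside 312.6 CPM in the aged brain, and 312.8 CPM of Fosb on 12 UMIs, beside 61.8 CPM.

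Across the 13 groups the members did not share a single pattern. On the scale log2(CPM + 10) Pearson's r was 0.89 between Fos and Fosb, 0.90 between Egr2 and Egr3, 0.88 between Atf3 and Jund and 0.78 between Junb and Maff. It was -0.57 between Jun and Maff and -0.26 between Jun and Junb. These are descriptions over 13 groups from 4 libraries, and groups of a library share its depth, free RNA and handling. Among all genes with enough UMIs, those most like the mean of the members were Dnajb9, a chaperone gene of the endoplasmic reticulum (r = 0.944), and H3f3b, a histone H3.3 gene (r = 0.921). The gene most like Fos was Selenok (0.898), to Jun Lmf1 (0.944), to Junb Eprs (0.966), to Jund H3f3b (0.935) and to Egr1 Stoml1 (0.899).

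The authors' deposited tables of genes per cluster, which cover each library alone, hold 10 entries of the members for the aged brain and 16 for the young brain, with 20 for the aged spleen and 13 for the young spleen. In the authors' deposited table of the aged spleen, Junb and Maff were listed for the cluster led by Gzma and Ccl4, with average log fold changes of 0.77 and 0.377. The authors' deposited table for the B cell clusters led by Cd79a listed Egr3 in both spleens, with 0.888 in the aged spleen, against 0.675 in the young spleen, and shares of cells of 55.6% and 46.5%. Those values set a cluster against the other cells of its library, and the base of the logarithm is not stated.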

How the data were processed

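The members and the gene lists were chosen with earlier results of these data known, and the rules for leaving clusters unnamed (a marker score under 1, little RNA, cycling genes) were set after the clusters were seen. The authors deposited raw UMI counts per gene and barcode for every barcode of each library, per the file headers from software version 3.1.0, and the submitters' processing notes list Cell Ranger 1.3.1 and GRCh38 although the gene IDs are those of mouse. The sources used do not state the aligner settings. The authors' deposited tables give an average log fold change, taken here as a natural log since the base is not stated, shares of cells as a fraction, and a p-value with its adjusted p-value; only the log fold changes and shares were printed.

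Cells were called where a barcode passed 10% of the 99th percentile over its library's 3000 largest barcodes, or departed from the profile of barcodes of at most 100 UMIs at a false discovery rate of 0.01 over 10000 simulated draws. Cells needed at least 500 UMIs, 250 genes and at most 10% mitochondrial UMIs. Doublets were scored in each library with scanpy 1.11.5. Its automatic threshold was used in the spleens (2.86% and 3.57% marked in the aged and young spleen), and a rate of 0.8% per 1000 cells in the brains, where it marked 0.0082% and 0.0272%. All libraries were clustered together (2000 variable genes without the members, 30 components, 15 neighbours, Leiden resolution 1, igraph 0.11.9). A T, NK, B, plasma, microglia, border macrophage or endothelial name was given from the marker lists.

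Counts were summed per class and library. Ratios carry exact conditional binomial intervals, CPM exact Poisson and shares exact Clopper-Pearson intervals, all at 95% (scipy 1.17.1). Intervals and floors cover counting error only. A gene was counted past the fold at 2-fold or more among genes whose UMIs came to 50 or more in the pair of libraries, and a ratio against 0 UMIs is a bound at 3 UMIs. Each group is 1 library, so no test was made. The count and interval steps were checked on simulated data. Text names all 10 members everywhere, up to 4 genes a list and comparison with the interval bound farthest from 1, and the genes most correlated with the members. Genome sequence is from RefSeq. Of the 31053 gene IDs 30934 were found in the GENCODE M21 annotation. Genes on the opposite strand overlap Jun, Junb, Jund and Atf3, and whether counting used strand is not given, so reads of such pairs cannot be told apart.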

Additional observations from a re-analysis of the deposited data

Results flagged for a closer look

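Several members had ratios on opposite sides of 1 in the 2 tissues, aged over young. Fosb was at 1.55 in splenic NK-like cells and 0.329 in microglia-like cells, Junb at 1.78 and 0.619, Egr2 at 2.15 and 0.507, and Egr3 at 1.55 and 0.139. Egr2 and Egr3 lay under their free RNA level in both classes and both ages. In aged brain microglia-like cells Junb was under its free RNA level too, and Fosb near it. These differences between tissues were not tested, because each ratio comes from 1 library a group, and cell type and tissue cannot be told apart in them.

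A class outside the comparisons also differed. A cluster scored as monocyte or macrophage, led by Tbc1d4, S100a4, Lgals3, Ptgs2 and Cxcl2, held 390 aged and 259 young spleen cells. Its aged over young ratio was 2.53 for Fosb, 2.24 for Jun, 2.33 for Egr1, 3.63 for Egr2, 4.70 for Egr3, 2.12 for Atf3 and 3.90 for Maff. Atf3 had 1051 CPM in the aged and 494.9 CPM in the young spleen, above its level in each of the 13 groups described. In the aged spleen cells Fosb, with 1066 CPM, and Egr1, with 1548 CPM, were also above each of those groups. The remaining members were not.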

How the results depend on the processing

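The comparisons were recomputed under 18 settings, 4 of them chosen after seeing the data (T-like cells with a Cd3 UMI, the low RNA cluster added to microglia-like cells, young brain barcodes with at least 5% of their UMIs in the aged spleen left out, and genes with at least 3 UMIs expected in the smaller library). Settings that change only the fold or the genes counted gave counts and no ratios. Some settings covered only part of the comparisons. A member ratio thus had between 8 and 13 alternatives. Of 1087 values, ratios and counts together, 958 stayed within the counting interval of the ratio or within 1.5 times the count, 129 did not, and none that was past 2-fold changed sides of 1. Of 200 counts of members past the fold, which include those at the 1.5-fold limit, 19 changed by more than 1.5 times. Fos, Maff and, except in B-like and border macrophage-like cells, Junb kept their direction in every setting that gave a value.

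At 1.5-fold in place of 2-fold, NK-like cells of the spleen had 7 members higher and 1 lower, T-like cells 4 higher, B-like cells 1 lower, microglia-like cells 6 lower and border macrophage-like cells 3 lower, by the looser limit itself. With libraries scaled on the median of ratios 5 members were lower in microglia-like and 2 in border macrophage-like cells, since Jun and Egr2 lie close to 2-fold. With at least 20 UMIs per gene, and with 1 UMI in each library, 1 member was higher in border macrophage-like cells, as Egr2 then entered. Thinned to 1000 UMIs per cell, 1 member was higher in T-like cells of the spleen, 2 were lower in border macrophage-like cells and 5 were lower in aged brain NK-like cells, where fewer UMIs remain. With a mitochondrial limit of 5%, 2 were lower in border macrophage-like cells. With cells called by the order-of-magnitude limit alone, 1 was higher in splenic NK-like cells, 5 were lower in aged brain NK-like cells (3 cells left), and in aged brain T-like cells (8 cells left) 2 were higher and 3 lower. With doublets kept, 1 was higher in T-like cells of the spleen. Where no reason is given, the cause was not tested. Apart from the 1.5-fold limit, the share of all genes past the fold was not computed under these settings. The counts given for them thus have no background beside them.

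In B-like cells Junb was at 1.09 under median scaling, 1.17 at the 5% mitochondrial limit and 1.04 with doublets kept, and Egr1 at 1.08 at that mitochondrial limit. No paired analysis was possible because each group is 1 library. Depth limits Egr2, Egr3, Atf3 and Maff most in the brain, and the 18 NK-like and 87 T-like cells of the aged brain throughout.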

Other observations

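Monocyte or macrophage-scored cells of the aged brain, 112 in number, lay in the same cluster as the splenic ones and had 337.7 CPM of Fos and 36.6 CPM of Atf3, against 1750 and 1051 CPM in the aged spleen. In the authors' deposited table of the aged spleen, the cluster led by Tbc1d4, Gm26917 and Atf3 listed Atf3 with an average log fold change of 1.93 and in 83.5% of its cells, against 18.9% of the other cells, and Egr1 with 1.58.

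Astrocyte-scored cells, 61 for the aged brain and 117 for the young brain, had 101.1 and 206.5 CPM of Fosb and 181.2 and 278.5 CPM of Fos, with Jund at 787.9 and 471.9 CPM. Choroid or ependymal-scored cells of the aged brain, 217 in number, had 48.3 CPM of Fos and 364.3 CPM of Jun.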
